A study of Mus musculus with 6 samples.

Results

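The protocadherins are the largest group of cadherin-like cell-surface proteins, and their transcripts were followed here in neocortical cells of the mouse embryo with and without forced expression of Insm1. The members are the rows of the count table whose symbol starts with Pcdh. There are 36 of them among 22001 genes. They comprise 1 Pcdha row, 22 Pcdhb rows, 1 Pcdhg row and 12 non-clustered genes, whose symbol is Pcdh followed by a digit. Of the 36, 33 had enough counts to be tested, namely the Pcdha and Pcdhg rows, 20 Pcdhb genes and 11 non-clustered genes.

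Plasmids were delivered by in utero electroporation at E13.5, and red-fluorescent (mCherry+) cells were sorted 24 h later, at E14.5. The 3 control libraries carry a plasmid encoding mCherry alone, and the 3 Insm1 libraries carry one encoding both Insm1, a zinc-finger transcription factor of neural progenitors, and mCherry. The sort was by mCherry alone, each library held transcripts of both progenitor and neuron markers, and the labels give neither the promoter of the plasmids nor the number or sex of the embryos pooled. Library totals lay between 30017645 and 31645135 counts. The labels do not tie the libraries to separate litters, so p-values rest on a spread between libraries that may not be one between litters.

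Protocadherins bind partners on neighbouring cells through extracellular cadherin repeats. The clustered genes lie in 3 tandem arrays on mouse chromosome 18. In the alpha and gamma arrays each variable first exon, with its own promoter, is spliced to exons that the whole array shares, whereas each beta gene is a single exon. Neurons switch on a subset of the variable exons, which gives cells a surface identity used in self-avoidance of dendrites and axons. The non-clustered genes, most of them of the delta type, are scattered over the genome, are expressed in regional patterns in the developing brain and act in cell sorting, axon growth and synapse formation.

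Before the family is described, some properties of the libraries bear on what follows. Insm1 lay between 222 and 371 CPM in the controls and between 1436 and 2173 CPM in the Insm1 libraries, where CPM is the read count scaled to library size with TMM. Markers of apical progenitors summed to between 3070 and 3566 CPM in the controls and between 2310 and 2818 CPM with Insm1, with 4 of 9 markers lower and none higher. Markers of projection neurons summed to between 6900 and 7135 CPM and between 7954 and 8633 CPM, with 3 of 8 higher and none lower. These calls are at an adjusted p below 0.05 in edgeR's quasi-likelihood test, by which 2.12% of all tested genes were lower and 1.23% higher. Control 2 stood apart from controls 1 and 3, with red blood cell markers at 5258 CPM against 715 and 307 CPM (3497 to 4891 CPM with Insm1), microglial markers at 61.3 CPM against 1.10 and 7.51 CPM (8.99 to 31.3 CPM), and Cajal-Retzius markers at 36.8 CPM against 140 and 133 CPM (35.8 to 56.1 CPM). Endothelial markers summed to between 0.519 and 2.79 CPM and mesenchymal and pericyte markers to between 3.05 and 5.24 CPM over the 6 libraries. The endothelial genes Cdh5 and Tek and the mesenchymal gene Col3a1 were at 0 in all 3 controls, while other markers of both lists had counts there. With Insm1, Cdh5 had 4 counts and Tek 9 counts in library 2, and Col3a1 had 1 count in library 1. In these mixed cells, fewer cells of a type and less RNA per cell cannot be told apart.

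Of the 33 tested protocadherins, 3 changed after Insm1, and each was non-clustered. Pcdh7 and Pcdh17 rose and Pcdh19 fell, at an adjusted p below 0.05 in edgeR's quasi-likelihood test. Over all 13560 tested genes the same rule called 3.35%, with 1.23% higher and 2.12% lower. The other 30 tested members did not pass. The median log2 fold change was -0.04 over the 33 members and -0.009 over all tested genes, with 15 members positive and 18 negative. In 12 of the 33 members the control and Insm1 values were fully separated, 9 of them higher with Insm1. The same held for 22.2% of all tested genes, with 10.4% higher.

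The windows around the start sites of the 3 genes that changed are printed because these genes moved in different directions. Each runs from 250 bases before to 50 bases after the RefSeq start on GRCm38.p6, 5′ to 3′ on the strand of the gene. Capitals mark GGGGGC, a run found in published Insm1 binding sites, CAGCTG, a form of the E-box bound by proneural factors, and CCAAT, the box bound by NF-Y, on either strand. CCAAT was added after the windows had been read. The 3 motifs did not overlap in these windows.
Pcdh7, plus strand, chr5:57717831-57718130: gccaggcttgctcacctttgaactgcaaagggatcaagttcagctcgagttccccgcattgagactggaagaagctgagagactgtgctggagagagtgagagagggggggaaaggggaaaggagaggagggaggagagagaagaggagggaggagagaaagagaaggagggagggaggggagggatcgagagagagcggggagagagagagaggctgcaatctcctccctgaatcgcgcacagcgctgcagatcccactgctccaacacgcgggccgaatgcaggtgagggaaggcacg
Pcdh17, plus strand, chr14:84443313-84443612: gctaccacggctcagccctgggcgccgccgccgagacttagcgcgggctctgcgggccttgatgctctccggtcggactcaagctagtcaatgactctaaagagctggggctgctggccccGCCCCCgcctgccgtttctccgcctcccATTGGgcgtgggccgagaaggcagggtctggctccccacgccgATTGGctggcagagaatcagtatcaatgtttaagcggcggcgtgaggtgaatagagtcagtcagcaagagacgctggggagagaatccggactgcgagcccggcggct
Pcdh19, minus strand, chrX:133688944-133689243: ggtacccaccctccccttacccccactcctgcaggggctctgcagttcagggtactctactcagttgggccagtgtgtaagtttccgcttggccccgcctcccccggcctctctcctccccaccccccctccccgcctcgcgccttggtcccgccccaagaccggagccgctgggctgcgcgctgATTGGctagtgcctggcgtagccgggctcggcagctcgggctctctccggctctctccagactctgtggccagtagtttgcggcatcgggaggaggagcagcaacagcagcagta

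The window of Pcdh17 held GGGGGC once and CCAAT 2 times, that of Pcdh19 held CCAAT once, and that of Pcdh7 held none of the 3 motifs. Of 32817 mouse promoter windows of the same length, 28.1% hold GGGGGC, 16.3% hold CAGCTG and 37.4% hold CCAAT. The Pcdh7 window was of a different make-up, with purines at 70.7% of its bases. Only 0.293% of all windows reach that share, and the median is 50.3%. Purine share was not among the planned measures, so this percentage describes the window and is not a test. Purines made up 51.3% of the Pcdh17 window and 40.3% of the Pcdh19 window. All 3 windows lay above the median GC content of 52.7%, at 59.3% for Pcdh7, 65.0% for Pcdh17 and 67.7% for Pcdh19. The Pcdh17 window held 26 CpG dinucleotides, that of Pcdh19 18 and that of Pcdh7 11, where the median is 7. GENCODE M21 starts Pcdh7 at 57717967, inside its window and before the RefSeq start. Part of the Pcdh7 window that precedes the RefSeq start therefore lies within the gene in that annotation. Promoter windows were at hand for 9 of the 36 members.

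Pcdh7 is a delta1 protocadherin whose cytoplasmic tail binds protein phosphatase 1. It is a gene of 415264 bases on chromosome 5, from 57717967 to 58133230 on the plus strand of GRCm38 (GENCODE M21). It was at 61.8, 68.8 and 57.5 CPM in controls 1, 2 and 3, and at 111, 118 and 94.2 CPM in Insm1 libraries 1, 2 and 3. Every Insm1 library lay above every control. The rise was 1.72-fold, from 62.7 ± 5.71 to 108 ± 12.5 CPM (SD, n = 3). In edgeR's quasi-likelihood test the log2 fold change was 0.78 (SE 0.10, 95% interval 0.55 to 1.02, adjusted p = 0.00559). The call held in all 6 fits that left out a library, where the log2 fold change ran from 0.71 to 0.87. Its exons overlap those of a transcript on the other strand, 4932441J04Rik, and the protocol in the labels describes no strand-marking step, so reads from these shared stretches cannot be told apart.

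Pcdh17, a delta2 protocadherin of the circuits between cortex and basal ganglia that acts in presynaptic assembly and axon extension, lies on chromosome 14 from 84443563 to 84539002 on the plus strand. It was at 28.3, 33.7 and 34.1 CPM in controls 1, 2 and 3 and at 45.4, 50.9 and 45.6 CPM in Insm1 libraries 1, 2 and 3. The groups did not overlap. The rise was 1.48-fold, from 32.0 ± 3.27 to 47.3 ± 3.12 CPM (SD, n = 3), and edgeR's test gave a log2 fold change of 0.56 (SE 0.11, 95% interval 0.32 to 0.80, adjusted p = 0.0215). The call was lost without control 1 (adjusted p = 0.0708), control 3 (0.0657), Insm1 library 2 (0.0884) or Insm1 library 3 (0.0653), while the log2 fold change stayed between 0.49 and 0.62.

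Pcdh19, a delta2 protocadherin that forms a complex with N-cadherin and whose human counterpart is mutated in an epilepsy that affects mainly females, went the other way. It lies on the X chromosome from 133582860 to 133688987 on the minus strand. Controls 1, 2 and 3 were at 70.8, 52.0 and 62.9 CPM, and Insm1 libraries 1, 2 and 3 at 39.6, 33.5 and 28.6 CPM. The lowest control was above the highest Insm1 library. The fall was 1.82-fold, from 61.9 ± 9.43 to 33.9 ± 5.51 CPM (SD, n = 3). In edgeR's test the log2 fold change was -0.87 (SE 0.14, 95% interval -1.19 to -0.55, adjusted p = 0.0119). Leaving out control 3 (adjusted p = 0.0666) or Insm1 library 2 (0.0535) ended the call, and the log2 fold change ran from -0.99 to -0.75 when single libraries were left out.

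Pcdh7 and Pcdh19 started from nearly the same level. Per kilobase of annotated exon, both were at 5.91 CPM in the controls (SD 0.539 and 0.901, n = 3). With Insm1 the level of Pcdh7 was 10.2 ± 1.18 and that of Pcdh19 3.24 ± 0.526 CPM per kilobase (SD, n = 3). Dividing the CPM of Pcdh7 by that of Pcdh19, a pair chosen after their values were seen, gave 0.873, 1.32 and 0.914 for controls 1, 2 and 3 and 2.80, 3.54 and 3.29 for Insm1 libraries 1, 2 and 3. For each of Pcdh7, Pcdh17 and Pcdh19 a two-sided exact permutation test on log2 CPM gave p = 0.1, the smallest that 3 libraries against 3 allow. None of the 3 passed in limma on log2(TPM + 1) of the deposited TPM, where the adjusted p was 0.0860 for Pcdh7, 0.149 for Pcdh17 and 0.0836 for Pcdh19. The summed levels of apical progenitor and projection neuron markers moved with the same contrast, and their part in these 3 changes was not tested.

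**Figure D1:**
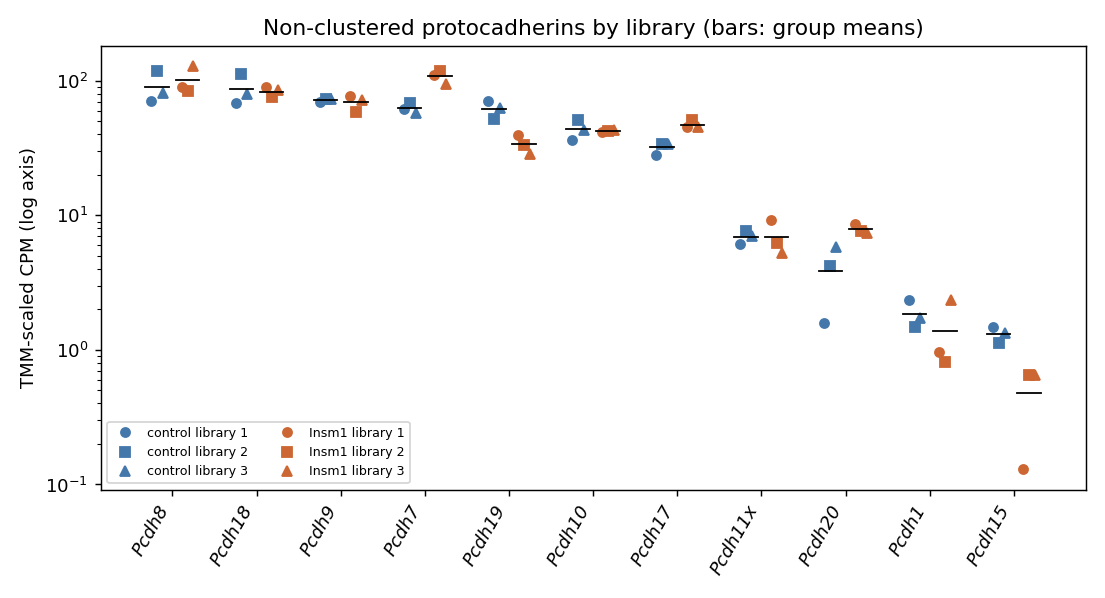
TMM-scaled CPM (log axis) of the 11 tested non-clustered protocadherins in each library, with control libraries in blue, Insm1 libraries in orange and black bars at the group means. The 3 Insm1 libraries lie above the 3 controls for Pcdh7, Pcdh17 and Pcdh20 and below them for Pcdh19 and Pcdh15, and Pcdh7, Pcdh17 and Pcdh19 passed the test.

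Of the other non-clustered genes, 8 were tested and none passed. The delta1 gene Pcdh9 was among the most even of the family in the controls, at 69.8, 73.6 and 72.8 CPM in controls 1, 2 and 3. With Insm1 it spread more widely, at 77.2, 58.9 and 71.6 CPM. Its log2 fold change was -0.06 (95% interval -0.29 to 0.17), which allows a level between 0.818 and 1.13 times that of the controls. Pcdh10, a delta2 protocadherin of axon growth that recruits the WAVE actin complex, had a log2 fold change of -0.04 (95% interval -0.32 to 0.24), with 36.3 to 51.4 CPM in the controls and 41.9 to 43.0 CPM with Insm1. The groups overlapped for both genes.

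Pcdh8, also called arcadlin or paraxial protocadherin, was at 71.2, 118 and 81.7 CPM in controls 1, 2 and 3 and at 89.9, 84.5 and 129 CPM with Insm1. Pcdh18, identified in mouse as a binding partner of the reelin adaptor Dab1, was at 68.6, 112 and 80.2 CPM in the controls and at 89.6, 75.3 and 85.0 CPM with Insm1. In both genes control 2 was the highest control and the groups overlapped. The 95% interval of the log2 fold change ran from -0.36 to 0.68 for Pcdh8 and from -0.42 to 0.30 for Pcdh18. Changes of either direction within these intervals were not excluded.

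The remaining non-clustered genes were scarce. Pcdh20 was at 1.59, 4.19 and 5.81 CPM in controls 1, 2 and 3 and at 8.57, 7.65 and 7.37 CPM in Insm1 libraries 1, 2 and 3, which do not overlap the controls. Its log2 fold change of 1.03 (95% interval 0.17 to 1.89) did not pass, at an adjusted p of 0.203 in edgeR's test, and control 1 was far below the other libraries. Pcdh15, known as a component of the tip link of hair cells, was at 1.14 to 1.49 CPM in the controls and 0.129 to 0.648 CPM with Insm1 (log2 fold change -1.47, adjusted p = 0.245 in edgeR's test), again without overlap and without passing. The X-linked delta1 gene Pcdh11x was at 6.18 to 7.66 CPM in the controls and 5.27 to 9.24 CPM with Insm1, and the delta1 gene Pcdh1 at 1.49 to 2.36 CPM and 0.810 to 2.36 CPM. Pcdh12, a protocadherin of endothelial cells, had 7 counts in Insm1 library 1 and 0 in each other library, where 0 allows up to 3 counts or 0.0979 CPM, and was not tested.

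**Figure D2:**
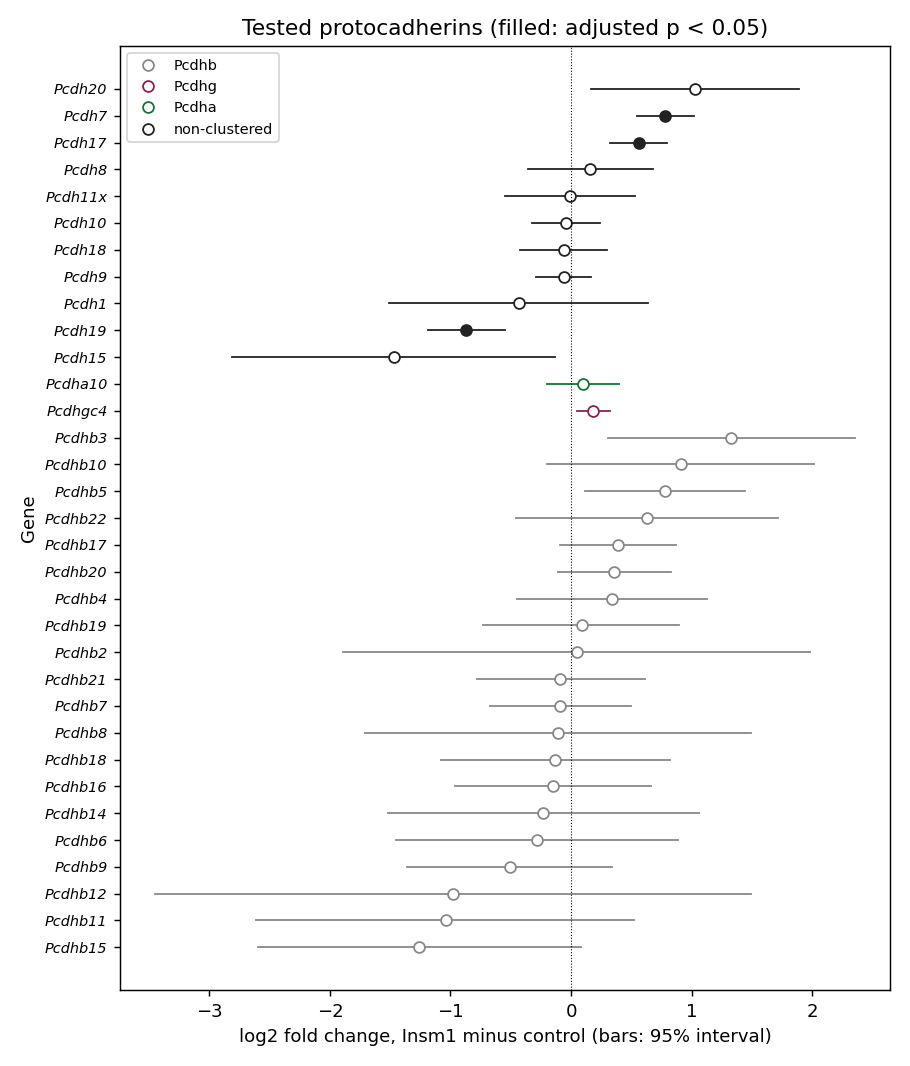
Log2 fold change of Insm1 over control with its 95% interval for the 33 tested protocadherins, by group, with filled points for an adjusted p below 0.05. Pcdh7, Pcdh17 and Pcdh19 are filled, and Pcdhb12 has the widest interval.

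The clustered genes were dominated by 1 row. The Pcdhg row, labelled Pcdhgc4, was at 487, 455 and 467 CPM in controls 1, 2 and 3 and at 503, 538 and 560 CPM in Insm1 libraries 1, 2 and 3. Every Insm1 library lay above every control, but the difference was small, 1.14-fold, from 470 ± 16.4 to 534 ± 28.6 CPM (SD, n = 3). It did not pass, at a log2 fold change of 0.18 (SE 0.06, 95% interval 0.05 to 0.32, adjusted p = 0.139 in edgeR's test). With single libraries left out the adjusted p ran from 0.0932 to 0.396. The Pcdha row, labelled Pcdha10, was at 72.1, 53.3 and 75.5 CPM in the controls and at 63.4, 76.3 and 75.7 CPM with Insm1. The groups overlapped, and its log2 fold change was 0.10 (95% interval -0.20 to 0.40, adjusted p = 0.791 in edgeR's test).

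These 2 rows cannot be read as single isoforms. GENCODE M21 places 14 alpha and 22 gamma genes in the arrays, and 34 of these have no row in the table used here. All 34 carry identifiers beyond the largest in that table, ENSMUSG00000097919. Of the 75-base windows in the transcripts of the Pcdha row, 57.7% also occur in another protocadherin, and 36.6% of those of the Pcdhg row do. In GENCODE M21 both genes include the shared exons of their array. Which variable exon a read of the shared exons came with cannot be told from the table, so choices between variable exons were not analysed here. The identifier of the Pcdha row, ENSMUSG00000007440, carries the symbol Pcdha10 in the table and Pcdha11 in GENCODE M21.

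The beta genes, each with an exon and a promoter of its own, have a row each. All 22 are single-exon genes in GENCODE M21, between 37264938 and 37524479 on chromosome 18. Reads can be told apart to a large extent, since a median of 1.23% of the 75-base windows of a beta gene, and at most 8.96% for Pcdhb21, also occur in another protocadherin. Windows of the 12 non-clustered genes occur in no other protocadherin. Pcdhb21 and Pcdhb22 overlap by their exons on the same strand, and the exon of Pcdhb12 overlaps that of Gm37446 on the other strand, so reads from these stretches cannot be told apart. Levels were low. The 20 tested beta genes had group means between 0.367 and 11.5 CPM, and Pcdhb1 and Pcdhb13 had too few counts to be tested, with at most 1 and 6 counts in any library.

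None of the 20 tested beta genes passed in edgeR's quasi-likelihood test, and none passed in DESeq2 or limma-voom. An unadjusted p below 0.05 was found for 2 of the 20 (Pcdhb3 and Pcdhb5) and for 17.2% of all tested genes. The beta genes went both ways, with 9 positive and 11 negative log2 fold changes, a median of -0.09 and a range from -1.26 for Pcdhb15 to 1.33 for Pcdhb3. Pcdhb3 was at 1.46, 0.811 and 3.26 CPM in controls 1, 2 and 3 and at 5.20, 5.28 and 3.46 CPM in Insm1 libraries 1, 2 and 3, without overlap (95% interval 0.31 to 2.36, adjusted p = 0.163 in edgeR's test). Pcdhb5 was at 3.85, 2.63 and 2.28 CPM in the controls and at 6.04, 5.09 and 3.91 CPM with Insm1, also without overlap but by a narrow margin (log2 fold change 0.78, adjusted p = 0.208 in edgeR's test). These 2 are named because of their p-values, after these were seen.

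The 3 beta genes of highest mean CPM, a scale that does not correct for length, were Pcdhb17, Pcdhb7 and Pcdhb19. Pcdhb17 was at 9.94, 6.69 and 9.73 CPM in controls 1, 2 and 3 and at 10.1, 14.1 and 10.2 CPM with Insm1. Pcdhb7 was at 10.9, 5.78 and 9.50 CPM in the controls and at 9.66, 8.59 and 6.40 CPM with Insm1, and Pcdhb19 at 8.48, 3.83 and 9.27 CPM and at 8.44, 9.92 and 4.59 CPM. Only Pcdhb17 had groups that did not overlap, and its interval ran from -0.09 to 0.87.

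Control 2 was the lowest of the 3 controls for each of them. Across the 20 tested beta genes, control 2 was the lowest of the 6 libraries in 12, whereas it was the lowest in 16.0% of the 3735 tested genes in the same range of mean CPM. The beta genes together came to 84.9, 43.2 and 68.7 CPM for controls 1, 2 and 3, and to 79.6, 78.4 and 58.8 CPM for Insm1 libraries 1, 2 and 3. Control 2 was the lowest library and the groups overlapped. The log2 ratio of the group means of this sum was 0.14. With single libraries left out it ran from -0.09 (without control 2) to 0.37 (without control 1). Beta genes also varied more between libraries of a group than genes of like level did. Their median coefficient of variation was 40.7% in the controls and 32.0% with Insm1, against 24.6% and 24.5% for the 3735 genes in the range. Control 2 also had the highest red blood cell and microglial sums given above, and the lowest Cajal-Retzius sum of the controls. Insm1 libraries 1 and 2, with the beta sums of 79.6 and 78.4 CPM, had red blood cell sums of 4891 and 4831 CPM, against 5258 CPM in control 2. The part of these cell types in the low beta sum was not tested.

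**Figure D3:**
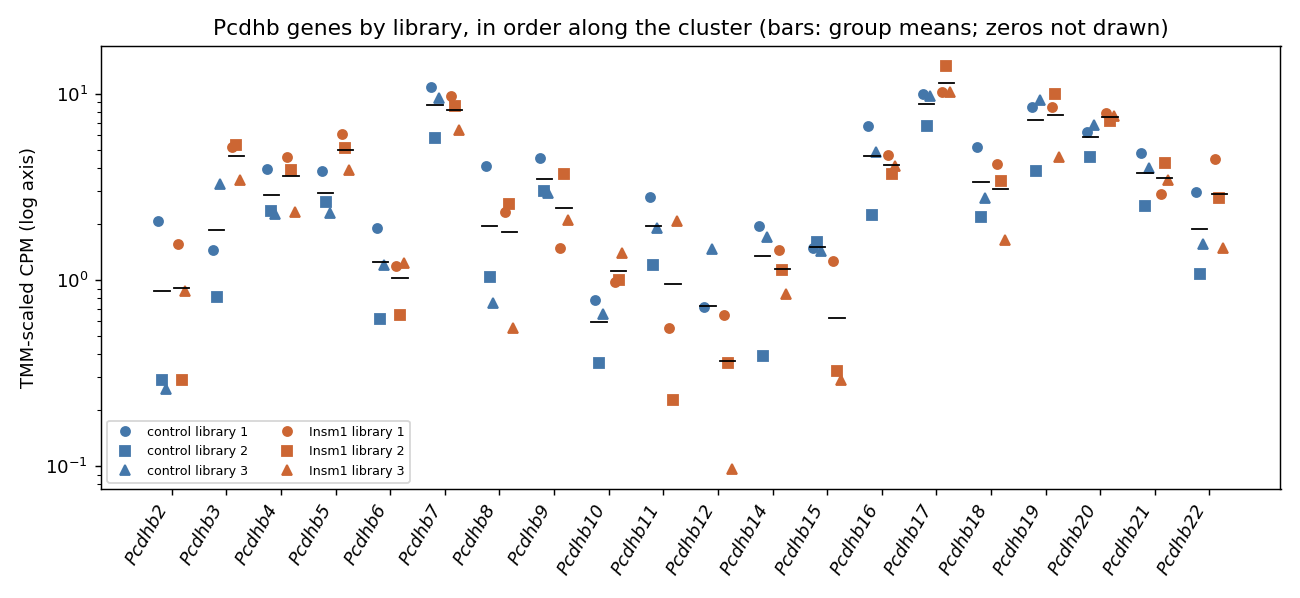
TMM-scaled CPM (log axis) of the 20 tested Pcdhb genes in each library, ordered along the cluster, with controls in blue, Insm1 libraries in orange and black bars at the group means, and a value of 0 left out. The blue squares of control 2 are the lowest of the 6 libraries in 12 of the 20 genes.

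Summed over all 12 members, the non-clustered genes were at 418, 524 and 448 CPM in controls 1, 2 and 3 and at 514, 479 and 512 CPM with Insm1. Here control 2 was the highest library, opposite to its place in the beta sum. The log2 ratio of the group means was 0.11 for the non-clustered genes, 0.10 for the Pcdha row and 0.18 for the Pcdhg row. Between control and Insm1 libraries the sums overlapped except for the Pcdhg row. With single libraries left out, the log2 ratio ran from 0.05 (without control 1) to 0.21 (without control 2) for the non-clustered genes, from -0.04 (without control 2) to 0.20 (without control 3) for the Pcdha row and from 0.15 to 0.22 for the Pcdhg row.

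Levels between members were compared per length, as CPM per kilobase of annotated exon. In the controls the Pcdhg row was the highest at 83.9 ± 2.92, followed by Pcdh8 at 19.9 ± 5.43, Pcdh18 at 16.2 ± 4.18, the Pcdha row at 12.5 ± 2.24 and Pcdh9 at 10.6 ± 0.299 CPM per kilobase (SD, n = 3). The gap from the Pcdhg row to Pcdh8 was far larger than either spread. The gaps between Pcdh8 and Pcdh18, Pcdh18 and the Pcdha row, and the Pcdha row and Pcdh9 were within the larger SD of each pair. That SD leaves out that both genes of a pair were measured in the same libraries. Pcdh8 had more CPM than Pcdh18 in each control and a shorter exon length (4538 against 5366 bases), so per kilobase it was higher in each control. Pcdh19 and Pcdh7 came next, and the highest beta gene on this scale, Pcdhb7, was at 2.49 ± 0.754 CPM per kilobase (SD, n = 3), close to Pcdh10 at 2.75 ± 0.475 and Pcdh17 at 2.47 ± 0.252. The values of the Pcdha and Pcdhg rows divide by the exons of 1 gene each and are too high to the extent that reads of other isoforms were counted there. Whether reads in introns were counted is not given in the sources used here. If they were, genes with long introns stand too high on this scale.

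The deposited TPM values give another order, because they divide by the genomic span of a gene, introns included. The length implied by counts and TPM was within 2% of the GENCODE span for 96.2% of 9388 genes, and within 2% of the exon length for 1.44%. Pcdh9, a gene of 877270 bases, ranked 5 of the 36 members per kilobase of exon in the controls and 30 by deposited TPM, at 0.732 TPM. Pcdh7 ranked 7 and 29, at 1.34 TPM, and Pcdh17 ranked 10 and 22, at 3.05 TPM. The intron-free beta genes moved up, Pcdhb7 from 9 to 4. Within 1 gene the span is the same in every library, but TPM also scales each library by a sum over all genes that depends on their spans. The log2 fold change of the Pcdhg row was 0.18 in edgeR and 0.12 in limma on log2(TPM + 1), and that of Pcdh8 was 0.16 and 0.10. A pseudocount of 1 TPM also weighs on genes with long introns. For Pcdh7 the log2 fold change in limma was 0.45 with a pseudocount of 1 and 0.68 with 0.1, and the call was lost with both.

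**Figure D4:**
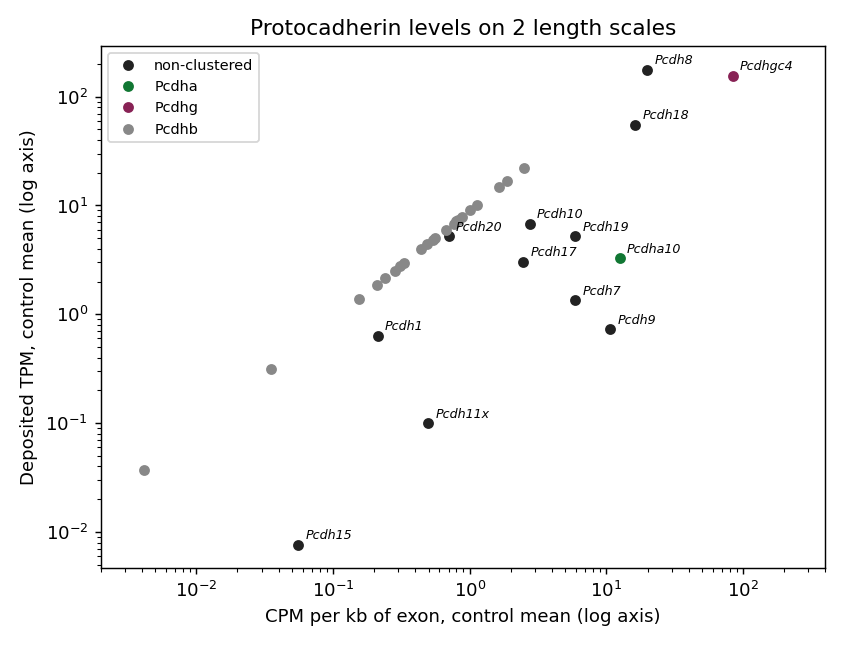
Mean level of each protocadherin in the controls as CPM per kilobase of exon (horizontal, log axis) and as deposited TPM (vertical, log axis), coloured by group. The single-exon Pcdhb genes lie on 1 line, and genes with long introns such as Pcdh9, Pcdh7 and Pcdh11x lie below it.

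Among genes that act on or with protocadherins, Rest and Dnmt3a passed the test. Of 20 regulators of the clustered promoters, 19 were tested (Wapl was not analysed here), and 2 fell, none rose and 17 did not pass, with a median log2 fold change of -0.02. Over all tested genes 3.35% passed. Rest, a zinc-finger repressor of neuronal genes with binding sites in the alpha array, fell 2.17-fold. It was at 48.3, 48.1 and 39.3 CPM in controls 1, 2 and 3 and at 22.3, 19.1 and 21.1 CPM with Insm1, without overlap (log2 fold change -1.12, SE 0.12, adjusted p = 0.00386 in edgeR's test), and its call held whichever single library was omitted. Dnmt3a, a DNA methyltransferase that sets new methylation marks, fell 1.40-fold, from 135 ± 10.2 to 96.7 ± 6.23 CPM (SD, n = 3; adjusted p = 0.0123 in edgeR's test), a call lost without control 3 (adjusted p = 0.0740), Insm1 library 2 (0.0535) or Insm1 library 3 (0.0570). The insulator protein gene Ctcf, whose product brings the variable promoters to their enhancers, had 213 ± 13.8 CPM in the controls and 219 ± 8.67 CPM with Insm1 (SD, n = 3), an adjusted p of 0.826. For the cohesin subunit gene Rad21 these means were 238 ± 32.6 and 231 ± 27.8 CPM (SD, n = 3), an adjusted p of 0.906.

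Of 18 cytoplasmic partners 16 were tested and none passed in edgeR's test, with a median log2 fold change of 0.04. The 2 most abundant were Set, whose human counterpart binds human PCDH7, with 1119 ± 1.06 CPM in the controls and 1073 ± 42.6 CPM with Insm1 (SD, n = 3; adjusted p = 0.618), and the small GTPase gene Rac1, with 424 ± 15.3 and 399 ± 24.8 CPM (SD, n = 3; adjusted p = 0.540). All 8 genes of shedding and gamma-secretase, which cut protocadherins at the membrane, were tested and none passed, with a median of 0.12. The sheddase gene Adam10 had means of 152 ± 12.8 CPM in the controls and 157 ± 7.31 CPM with Insm1 (SD, n = 3; adjusted p = 0.823), and for the gamma-secretase gene Ncstn they were 141 ± 9.43 and 158 ± 5.57 CPM (SD, n = 3; adjusted p = 0.256).

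**Figure D5:**
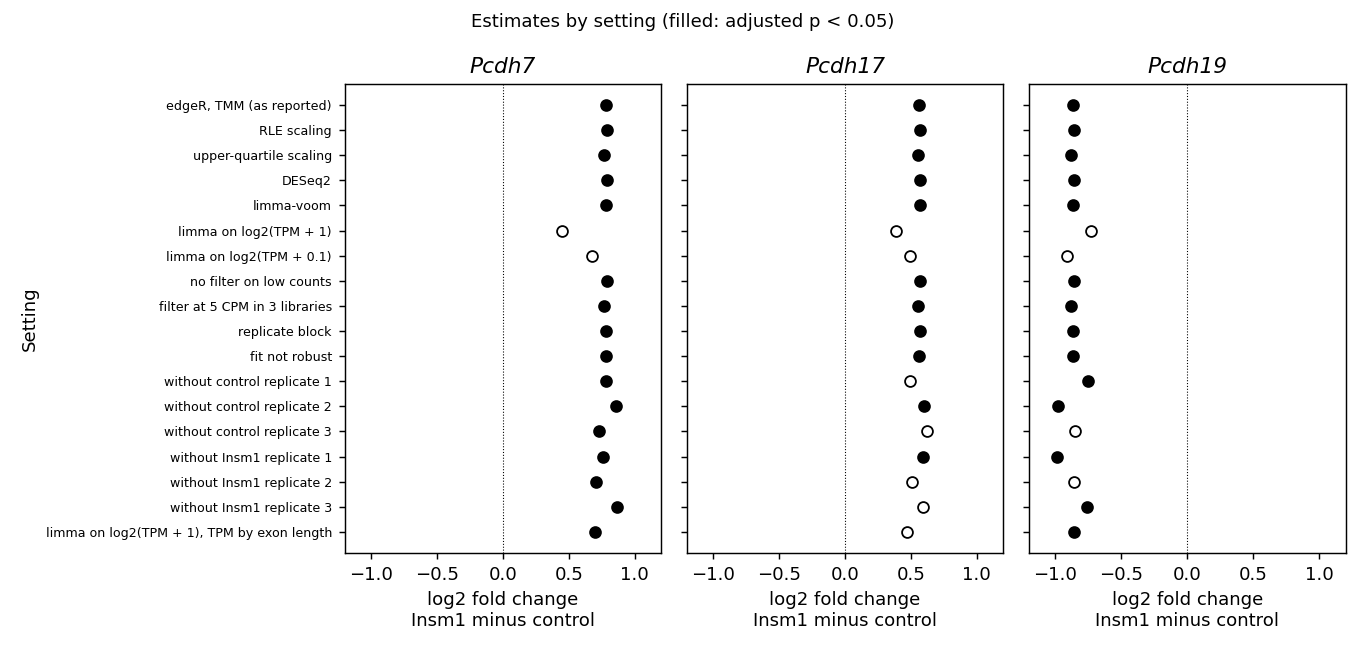
Log2 fold change of Insm1 over control for Pcdh7, Pcdh17 and Pcdh19 under each setting (vertical axis), with filled points for an adjusted p below 0.05. In each gene the direction is the same under all settings drawn, and Pcdh17 has the most open points.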

How the data were processed

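Counts per gene in 6 RNA-seq libraries were compared. The deposited counts are whole-number counts per Ensembl gene and the deposited TPM values equal, for 96.2% of the genes checked, those counts scaled by the genomic span of the gene. Per the labels' protocols, cDNA was primed with poly-dT, amplified for 12 cycles, sheared, amplified for 15 further cycles and read as single 75-base reads, without molecular identifiers. The submitters' processing notes name the build GRCm38 and, with no roles stated, the tools bcl2fastq, Bowtie and TopHat2 2.0.13. How reads were assigned to genes, by which gene models and with or without strand, is not given in the sources used here.

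Genes were kept by edgeR's filterByExpr (13560 of 22001), scaled by TMM and tested with edgeR 4.0.16 (R 4.3.3), a robust quasi-likelihood fit to group, two-sided, with Benjamini-Hochberg adjustment over all tested genes and a threshold of 0.05. Standard errors and 95% intervals come from that test. Exon lengths, positions and 75-base windows are from GENCODE M21 (GRCm38), and promoter windows from RefSeq (GRCm38.p6). Each library counted as 1 sample. Libraries of the same group differed beyond counting error, since pairwise chi-square values divided by their degrees of freedom ran from 12.9 to 32.5. The members, gene lists and tests were chosen with earlier results of these data known. Named genes are all non-clustered members, the 3 most abundant and any called clustered members, and called members of each list (at most 4) or its 2 most abundant. Ctcf, Rad21, Pcdhb1, Pcdhb3, Pcdhb5, Pcdhb12, Pcdhb13, Pcdhb15, Pcdhb21 and Pcdhb22 are named outside this rule, after their values were seen. So are the markers Cdh5, Tek and Col3a1. The lists hold 20 promoter regulators, 18 cytoplasmic partners, 8 shedding genes and markers of 9 cell types. Of the markers not described in the report, those of basal progenitors had 2 of 6 called higher, where 1.23% of all tested genes were. Interneuron markers, also not described above, summed to between 9.22 and 17.0 CPM in the controls and between 6.33 and 9.15 CPM with Insm1, with none called. The results were recomputed with DESeq2 1.42.0, with limma-voom (limma 3.58.1), with limma on log2(TPM + 1) or log2(TPM + 0.1), with the scalings RLE and upper quartile, with every gene kept, with at least 5 CPM required in 3 libraries, with a replicate block, without robust estimation, and without each library in turn, the filter then being reapplied.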

Additional observations from a re-analysis of the deposited data

How the results depend on the processing

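Members were called in the same number under RLE and upper-quartile scaling, DESeq2, limma-voom, no filter, the filter at 5 CPM, the fit that is not robust and the replicate block, 2 higher and 1 lower in each. RLE and upper-quartile scaling shifted the median log2 fold change of all genes by 0.004 and -0.013. limma on the deposited TPM called 0 higher and 0 lower with a pseudocount of 1 or 0.1, where adjusted p ran from 0.0786 to 0.159 for Pcdh7, Pcdh17 and Pcdh19. Over all genes it called 60 and 64. limma on log2(TPM + 1) with TPM recomputed by exon length, an alternative chosen after seeing the data, called 1 higher (Pcdh7, adjusted p = 0.0178), 1 lower (Pcdh19, 0.0270) and 389 genes in all, and Pcdh17 did not pass (0.118). The cause of the remaining difference was not tested. With single libraries left out, 1 to 2 members were called higher and 0 to 1 lower. Over all genes 454 were called, against 331 with the replicate block, 1016 by DESeq2 and between 101 and 631 with a library left out.

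Same-numbered libraries had correlations of their deviations from the group means of 0.074, 0.035 and -0.055. Those of differently numbered libraries ran from -0.097 to 0.065. The labels do not say whether same-numbered libraries are paired, and these correlations cannot decide whether they shared a litter or a day. With the replicate block, adjusted p was 0.00697 for Pcdh7, 0.0400 for Pcdh17 and 0.0154 for Pcdh19, with 2 members higher and 1 lower, and the block changed no call among the members. Of 543 values of the 33 tested members under the alternatives, 530 kept their side of the threshold, 13 of Pcdh7, Pcdh17 and Pcdh19 lost the call, and 0 reversed a called direction, while 31 values of members that did not pass had the other sign. The beta genes were measured less precisely, with a median standard error of 0.44 on the log2 scale against 0.16 for the non-clustered genes. Their counts were lower and their spread between libraries exceeded that of genes of like level, and the parts of both in this error were not tested.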
